A study of Homo sapiens with 4 samples.

Results

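The genes described here encode the invariant chains of the T cell receptor complex and the proteins that act first when it is engaged. They were chosen by name: the receptor chains CD3D, CD3E, CD3G and CD247, the kinases LCK and ZAP70, the adaptors LAT and LCP2, and the enzyme PLCG1. All 9 were found, with 1 row each, among 16328 transcript rows. RNA came from Jurkat cells, an established human T cell leukemia line, which were transduced with a lentiviral vector. There were 3 libraries labelled SLEAR shRNA, numbered 1 to 3, which carried hairpins against SLEAR, and 1 library labelled Control, named in the design text as control shRNA. Whether these numbers stand for different hairpins or for repeats is not stated in the labels, and nothing says that the cultures were separate. The spread behind each p-value is that of these libraries and may be technical. Values with SLEAR shRNA are given for libraries 1, 2 and 3 in that order. The level of SLEAR is not analysed here, and the knockdown was not checked.

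In T cells the antigen-binding alpha and beta chains have almost no intracellular part and signal through the CD3 chains and the zeta chain, whose tails hold tyrosine motifs called ITAMs. LCK phosphorylates the ITAMs, ZAP70 binds them and phosphorylates LAT and LCP2 (SLP-76), and PLCG1, held on that scaffold, cleaves a membrane lipid into the messengers that open the calcium and diacylglycerol branches. Jurkat cells have long served as the model in which this order of events was worked out.

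Values are RPM, reads scaled to a library total that is the same for every library, from reads at the 3' ends of polyadenylated transcripts. They are not divided by transcript length, since a molecule is read at its end alone, and a row pools every transcript that ends there. The rows of CD3D, CD247, LCK, ZAP70 and PLCG1 each pool 2 annotated transcripts and that of LAT pools 4, so isoforms were not told apart. Low values are multiples of a fixed step per library. Taken as the worth of a single read, that step was 0.142, 0.133 and 0.208 RPM with SLEAR shRNA and 0.119 RPM in Control, so SLEAR shRNA-3 was the least deeply sequenced. Of 36 member values, 33 were whole numbers of reads within 0.05, and the 3 that were not are those of CD3D in the SLEAR shRNA libraries. The 95% counting intervals below are exact Poisson intervals on the rounded reads; they cover counting error only, as no use of molecular identifiers is stated. SLEAR shRNA-3 stood apart. Its rows at 0 were 42.5% of all, while they were 16.2% and 14.2% in the other SLEAR shRNA libraries and 18.3% in Control. Among rows above 100 RPM in both SLEAR shRNA-1 and -2, 0 of 1359 were at 0 in SLEAR shRNA-3, but 24.8% of those at 4 to 8 RPM were. Those 1359 rows still moved in SLEAR shRNA-3. Their log2(RPM + 1) differed from the mean of SLEAR shRNA-1 and -2 by a median of 0.346, sign aside (SD of the difference 0.537). The same difference was 0.27 for CD3D, 0.20 for LCK, -0.29 for CD3E, -0.31 for CD247 and -0.76 for LAT. Results are therefore given with and without that library.

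Of 15 T cell markers, 7 are among the genes described here and make up nearly all of the list's summed level. Of the other 8, 5 had a row, with a summed level of 175, 181 and 123 RPM with SLEAR shRNA and 138 RPM in Control, most of it CD2 and CD5, surface receptors of T cells. CD2 was singled out after its values were seen. Summed levels of NK cell markers (5 of 7 with a row) were 5.32 to 13.7 RPM with SLEAR shRNA and 10.6 RPM in Control. Those of myeloid markers (4 of 7) were 0 to 1.06 RPM and 2.62 RPM, and ITGAM was at 0 in every library. The B cell markers (5 of 9) summed to 26.6 to 38.2 RPM with SLEAR shRNA and 21.2 RPM in Control, most of it CD79A and SYK; CD79A alone was at 12.05 to 21.6 RPM over the 4 libraries, about the level of ZAP70. Erythroid (3 of 5), epithelial (2 of 6) and fibroblast (2 of 5) markers each summed to at most 3.19 RPM in any library. The constant genes of the alpha and beta chains are not analysed here.

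Of the receptor chains, 3 were abundant transcripts and 1 was at the floor. CD3D, which encodes CD3 delta, a partner of CD3 epsilon, was at 1590, 1679 and 1966 RPM with SLEAR shRNA and at 1580 RPM in Control. It was the highest member in every library, at rank 73, 64 and 47 of 16151 distinct rows with SLEAR shRNA and rank 68 in Control. All 3 SLEAR shRNA values lay above Control, but that of SLEAR shRNA-1, with a counting interval of 1561 to 1620 RPM, overlapped Control's interval of 1553 to 1607 RPM. CD247, the zeta chain that carries most of the complex's ITAMs, was at 1014, 911 and 777 RPM with SLEAR shRNA and at 905 RPM in Control. The SLEAR shRNA values lay on both sides of Control, with SLEAR shRNA-3 the lowest of the 4 libraries. CD3E, which encodes CD3 epsilon, the chain that pairs with both delta and gamma, was at 571, 539 and 454 RPM with SLEAR shRNA and at 485 RPM in Control. The groups overlapped in the same manner, with SLEAR shRNA-1 and -2 above Control and SLEAR shRNA-3 below it. Mean levels with SLEAR shRNA were 1745 ± 197 RPM for CD3D, 900.4 ± 119 RPM for CD247 and 521 ± 60.4 RPM for CD3E (SD, n = 3).

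CD3G, which encodes CD3 gamma, was listed at 0 in all 3 SLEAR shRNA libraries and at 0.238 RPM, or 2 reads, in Control. By the usual limit of 3 reads, a one-sided bound, a count of 0 allows 0.426, 0.399 and 0.623 RPM with SLEAR shRNA, and the two-sided Poisson intervals used elsewhere reach 0.523, 0.490 and 0.766 RPM. Thus the groups could not be told apart at this depth, and the row did not reach the 1 RPM needed for the test. In the RefSeq gene order CD3E, CD3D and CD3G stand next to each other on chromosome 11 with no gene between them, CD3D on the minus strand and the others on the plus strand. A 0 in this table does not show that the transcript was absent from the cells, because a gene used in every cell was also at 0 in some libraries: SDHA, a subunit of succinate dehydrogenase, was at 1.42, 0.133 and 0 RPM with SLEAR shRNA and at 0 RPM in Control. SDHA was singled out after its values were seen, from 16 housekeeping genes. All the others had reads in every library, the lowest being GUSB at 4.47 RPM in SLEAR shRNA-3.

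**Figure D1:**
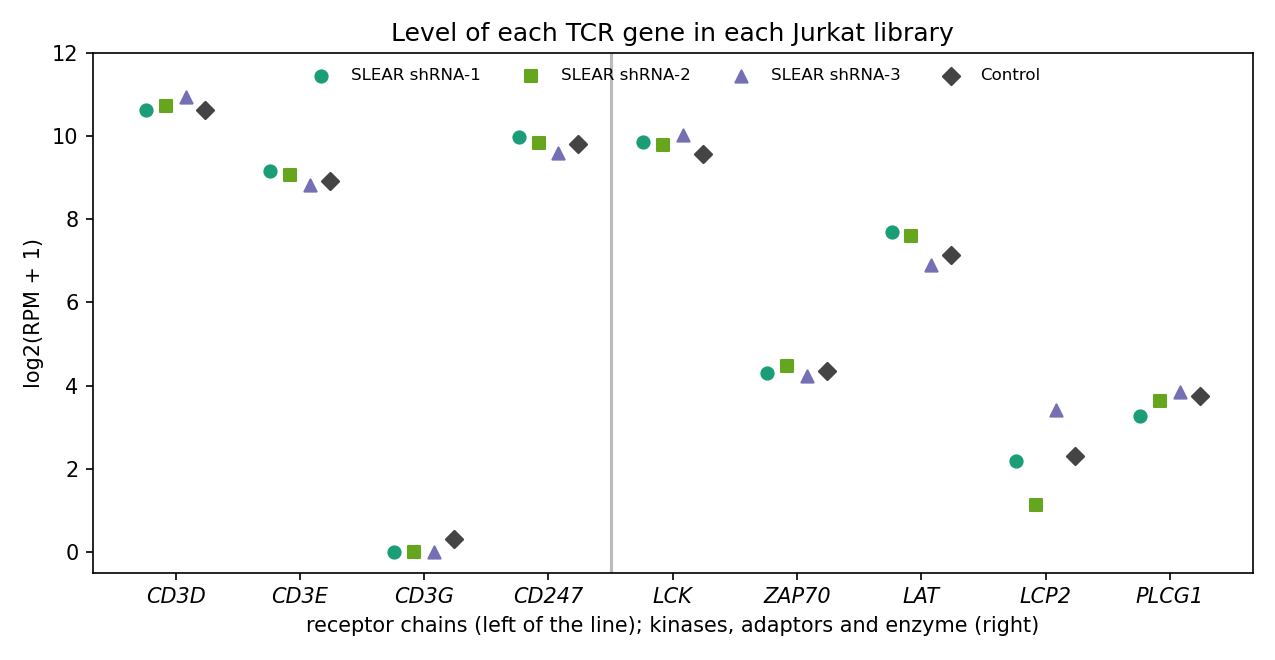
Level of each gene on the log2(RPM + 1) scale, with 1 point for each library, receptor chains on the left and kinases, adaptors and enzyme on the right. CD3D, CD247, LCK, CD3E and LAT sit above 100 RPM in every library, ZAP70, PLCG1 and LCP2 lie well under them, and CD3G is at the floor.

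Among the kinases, LCK was higher in all 3 SLEAR shRNA libraries by more than counting error, but not beyond the spread the test allowed. LCK, the Src family kinase bound to the coreceptors, was at 925, 884 and 1037 RPM with SLEAR shRNA and at 753 RPM in Control. All 3 SLEAR shRNA values were higher, and their counting intervals, 903 to 948, 863 to 905 and 1009 to 1067 RPM, did not overlap Control's, 734 to 772 RPM. The mean was 949 ± 79.5 RPM (SD, n = 3) with SLEAR shRNA, and the difference was 0.33 ± 0.20 (SE) on the log2(RPM + 1) scale, a fold change of 1.26 with a 95% interval of 0.869 to 1.82. It did not pass by limma-trend (unadjusted p = 0.166, adjusted p = 0.993 over all tested rows). ZAP70, the kinase that docks on phosphorylated ITAMs, was at 18.9, 21.3 and 17.7 RPM with SLEAR shRNA and at 19.4 RPM in Control, and Control lay within the SLEAR shRNA range.

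LCK has a pair of promoters, a distal and a proximal one, and reads at the shared 3' end do not tell which was used. The sequences around both starts are shown with that of CD247, because these 3 windows hold both an ETS match and an E-box match. They are RefSeq sequences on GRCh38.p14, from 250 bases before to 50 after the annotated start, 5′ to 3′ on the gene's strand; LCK lies on the plus strand of chromosome 1 at chr1:32251015-32251314 (start 1) and chr1:32273871-32274170 (start 2), and CD247 on the minus strand at chr1:167518480-167518779. The files used hg19, so these positions were not joined to them. Capitals mark matches, on either strand, to the ETS letters AGGAAGT, the RUNX letters TGTGGT, the E-box letters CAGGTG, the letters AGATAA read by GATA factors, or the TATA box letters TATAAA.
LCK start 1: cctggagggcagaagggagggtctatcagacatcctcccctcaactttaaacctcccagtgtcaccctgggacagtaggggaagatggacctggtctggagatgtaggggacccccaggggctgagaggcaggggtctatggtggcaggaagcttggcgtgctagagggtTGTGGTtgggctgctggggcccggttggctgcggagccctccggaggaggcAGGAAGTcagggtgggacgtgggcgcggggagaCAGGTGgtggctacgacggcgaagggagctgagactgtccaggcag
LCK start 2: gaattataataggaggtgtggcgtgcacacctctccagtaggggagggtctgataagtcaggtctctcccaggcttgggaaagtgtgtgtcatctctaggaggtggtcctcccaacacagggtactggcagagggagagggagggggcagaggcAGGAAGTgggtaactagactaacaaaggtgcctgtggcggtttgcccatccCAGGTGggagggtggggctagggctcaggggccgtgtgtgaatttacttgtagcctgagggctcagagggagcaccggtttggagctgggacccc
CD247: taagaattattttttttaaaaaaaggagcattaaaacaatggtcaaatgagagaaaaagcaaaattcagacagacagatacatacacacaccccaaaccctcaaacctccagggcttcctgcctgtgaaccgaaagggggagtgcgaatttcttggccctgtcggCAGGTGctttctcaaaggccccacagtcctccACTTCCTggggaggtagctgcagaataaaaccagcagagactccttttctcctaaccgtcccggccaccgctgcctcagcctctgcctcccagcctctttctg
Of the 9 members, 7 had at least 1 window in the table, 11 windows in all; CD3E and CD3G are named only. An ETS match stood in 4 of the 11 windows, those of LCK, CD247 and LCP2, against 8.24% of all 35116 windows. The E-box letters stood in 20.6% of all windows, RUNX in 13.1%, GATA in 10.3% and TATA in 11.5%. Among member windows, E-box matches stood in those of CD247, LCK, ZAP70 and LAT, and RUNX matches in those of CD3D, LCK and LAT. No member window held a GATA or TATA match. The motifs, TATA aside, were picked as letters known from T lineage genes. All were picked after the sequences were seen, and a match is a description, not a site.

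The adaptors and the enzyme spanned a wide range of levels. LAT, the membrane adaptor that ZAP70 phosphorylates, was at 206, 193 and 118 RPM with SLEAR shRNA and at 140 RPM in Control. SLEAR shRNA-1 and -2 were higher than Control and SLEAR shRNA-3 was lower, each with a counting interval clear of Control's 133 to 149 RPM: 196 to 217, 184 to 204 and 108 to 128 RPM. PLCG1, phospholipase C gamma 1, was at 8.65, 11.4 and 13.3 RPM with SLEAR shRNA and at 12.5 RPM in Control. LCP2, the cytosolic adaptor SLP-76, was at 3.55, 1.20 and 9.56 RPM with SLEAR shRNA, which is 25, 9 and 46 reads, and at 3.94 RPM, or 33 reads, in Control. Mean levels with SLEAR shRNA were 172 ± 47.8 RPM for LAT, 11.1 ± 2.33 RPM for PLCG1 and 4.77 ± 4.31 RPM for LCP2 (SD, n = 3). For both PLCG1 and LCP2, Control lay within the SLEAR shRNA range, and LCP2 had the widest spread of the members with reads, at 90.4% of its SLEAR shRNA mean (coefficient of variation, n = 3).

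In all 4 libraries CD3D had the highest level, CD247 and LCK came next, and CD3E, LAT and ZAP70 followed in that order. CD247 and LCK averaged 900.4 ± 119 RPM and 949 ± 79.5 RPM with SLEAR shRNA (SD, n = 3). CD247 was the higher in SLEAR shRNA-1, with counting intervals of 990 to 1038 against 903 to 948 RPM. It was also higher in Control, at 884 to 925 against 734 to 772 RPM. In SLEAR shRNA-2 the intervals overlapped, at 889 to 932 and 863 to 905 RPM. The order was reversed in SLEAR shRNA-3, with CD247 at 752 to 802 and LCK at 1009 to 1067 RPM. PLCG1 was above LCP2 in every library, but its range in the SLEAR shRNA libraries, 8.65 to 13.3 RPM, overlapped that of LCP2, 1.20 to 9.56 RPM. These levels are RPM at the ends each row covers.

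Between SLEAR shRNA and Control, none of these genes passed the test of a difference. Limma-trend on log2(RPM + 1) tested the 12350 rows that reached 1 RPM in some library, at a Benjamini-Hochberg adjusted p under 0.05. With 1 Control library, the spread came from the 3 SLEAR shRNA libraries, and Control was assumed to vary like them. Of 8 tested members 0 passed, against 0% of all tested rows; without adjustment, 0 members but 92 higher and 239 lower rows had a p under 0.05. Limma-voom on estimated reads also called 0 rows, and 69 higher and 222 lower ones had a p under 0.05 before adjustment. Adjusted p values of the 8 members lay between 0.993 and 0.998. A miss does not show that levels were equal: the 95% interval of the fold change was 0.715 to 1.69 for CD3D, 0.719 to 1.59 for CD3E, 0.644 to 1.52 for CD247 and 0.586 to 2.42 for LAT. It was 0.496 to 1.97 for ZAP70, 0.331 to 2.37 for PLCG1 and 0.12 to 7.63 for LCP2. A lower share of cells with a transcript and less of it per cell cannot be told apart in such bulk samples.

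The direction was shared by all 3 SLEAR shRNA libraries for 2 of the 8 tested members, CD3D and LCK, both higher, and 0 were lower in all 3. Among all tested rows 17.8% were higher in all 3 libraries and 28.6% were lower. CD3E, CD247 and LAT shared another order, higher than Control in SLEAR shRNA-1 and -2 and lower in SLEAR shRNA-3, which 15.7% of all tested rows showed. The 3 comparisons share the same Control library, so these counts are a description.

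**Figure D2:**
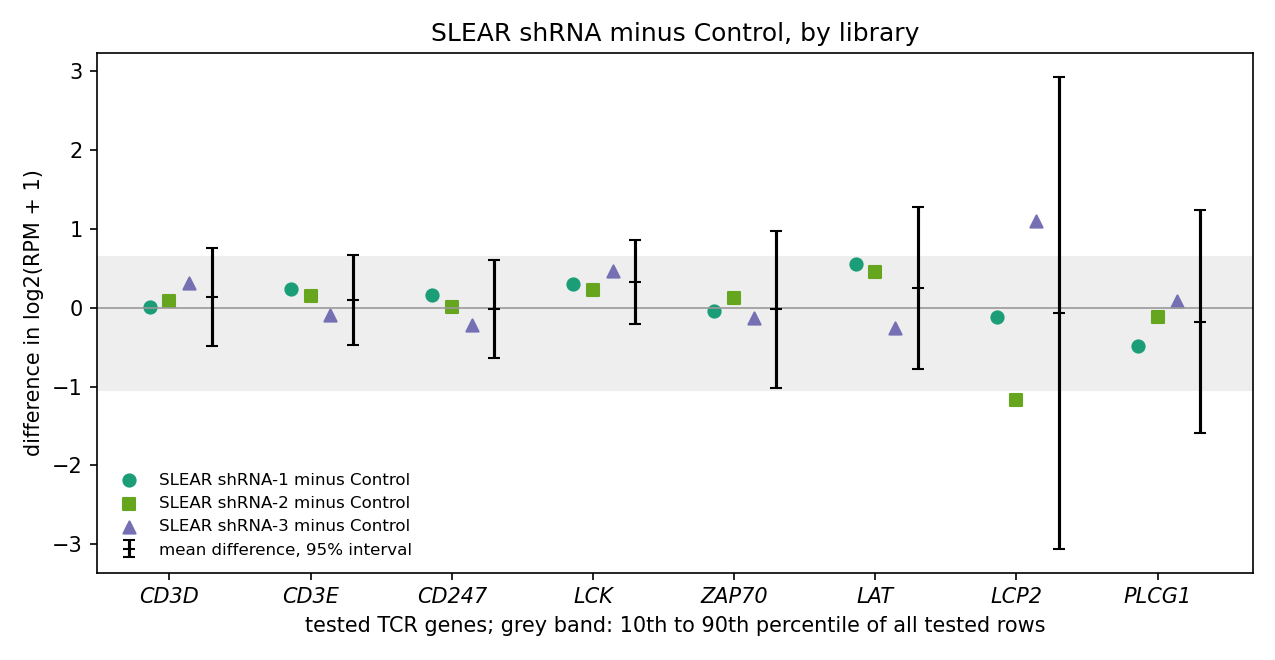
Difference from Control in log2(RPM + 1) for each SLEAR shRNA library (points) and for their mean with its 95% limma-trend interval (black), for the 8 tested genes. LCK has all 3 points above 0, from 0.23 to 0.46, CD3E, CD247 and LAT split between SLEAR shRNA-3 and the others, and every interval spans 0; the grey band from -1.05 to 0.65 holds the middle of all tested rows, between the 10th and 90th percentile.

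With SLEAR shRNA-3 left out and the fit kept to rows whose mean log2 level reached 4, LAT rose and was the 1 member of 6 tested that passed. LAT had a log2 difference of 0.50 ± 0.16 (SE), 206 and 193 RPM against 140 RPM in Control (limma-trend adjusted p = 0.0157). In that fit 7.04% of 4932 rows were called higher and 7.02% lower. Each row had 1 degree of freedom, but the fit gave it no weight beside the spread pooled over rows. The SE and adjusted p values of that fit therefore do not measure the spread of a single gene. The call was lost with SLEAR shRNA-3 in the fit, where the difference was 0.25 ± 0.38 (SE). Leaving out SLEAR shRNA-3 over all 12350 rows did not give it either (difference 0.50, adjusted p = 0.368). LCK in the restricted fit had a log2 difference of 0.26 ± 0.12 (SE, adjusted p = 0.134), CD3E 0.19 ± 0.13 (adjusted p = 0.332), CD247 0.09 ± 0.12, CD3D 0.05 ± 0.11 and ZAP70 0.04 ± 0.28, none of which passed. PLCG1 and LCP2 were too low for it.

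Ratios between members within a library do not depend on how the library was scaled. The ratio of CD247 to CD3E was the steadiest of the 11 ratios computed, at 1.78, 1.69 and 1.71 with SLEAR shRNA. All 3 values lay below the 1.87 of Control. The ratio of CD3D to CD3E was 2.79, 3.11 and 4.33 with SLEAR shRNA, against 3.26 in Control. The chains of 1 complex thus did not keep a fixed ratio of reads in SLEAR shRNA-3. Rows above 100 RPM moved in that library by a median of 0.346 log2, sign aside, and CD3D and CD3E by 0.27 and -0.29. The change of ratio is therefore not shown to be particular to these chains. Ratios outside the members were not computed. LCK relative to CD3D was 0.582, 0.526 and 0.528 with SLEAR shRNA, all above the 0.477 of Control. LCK relative to CD3E was 1.62, 1.64 and 2.29, against 1.55 in Control, and relative to CD247 it was 0.913, 0.970 and 1.34, against 0.832 in Control. LCK was thus above its Control ratio to each abundant receptor chain in all 3 libraries. These ratios share the same LCK values and the same Control library, so they are not separate observations. LAT relative to LCK was 0.223, 0.219 and 0.114 with SLEAR shRNA, on both sides of the 0.187 of Control. The ratios were not tested, and no counting intervals were computed for them, so small gaps from Control may lie within counting error.

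**Figure D3:**
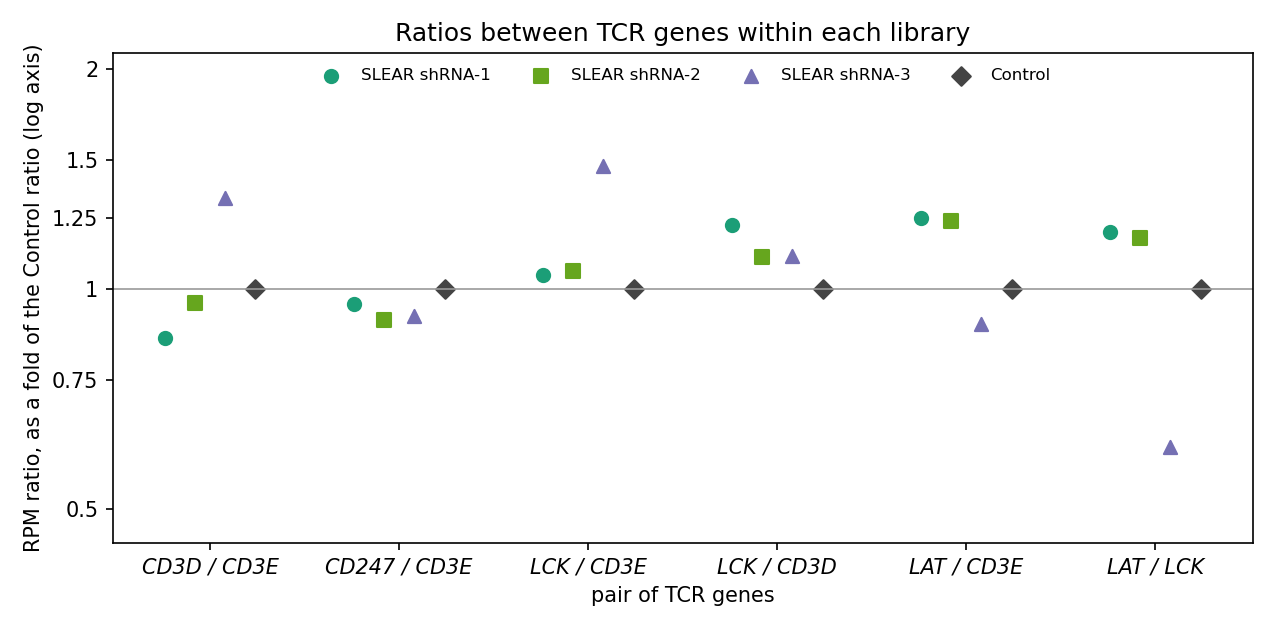
RPM ratio of 6 pairs of genes within each library, divided by the same ratio in Control (log axis), so that Control stands at 1. CD247 over CD3E is below Control, and LCK over CD3D is above it, in all 3 SLEAR shRNA libraries, without counting intervals or a test. SLEAR shRNA-3 stands apart for CD3D over CD3E, LCK over CD3E and LAT over LCK.

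Set against each other as classes, receptor chains summed to 3175, 3128 and 3197 RPM with SLEAR shRNA and to 2970 RPM in Control. Kinases, adaptors and enzyme summed to 1163, 1111 and 1196 RPM with SLEAR shRNA and to 929 RPM in Control, most of it LCK. Receptor chains made up 73.2%, 73.8% and 72.8% of the members' reads with SLEAR shRNA, against 76.2% in Control. LCK alone made up 21.3%, 20.8% and 23.6%, against 19.3% in Control. On the log2(RPM + 1) scale, where each gene counts equally, the class mean of the receptor chains exceeded that of the others by 1.98, 2.08 and 1.67 with SLEAR shRNA and by 2.00 in Control, so Control lay within the SLEAR shRNA range. This value is set largely by CD3G: without it the difference was 4.46, 4.55 and 4.12 with SLEAR shRNA and 4.37 in Control, again with Control inside the range. With a pseudocount of 0.1 it was 1.26, 1.43 and 0.899 with SLEAR shRNA and 1.62 in Control, which then lay above all 3, so the position of Control depends on how the row of CD3G is treated.

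Other genes of the pathway were followed in 6 lists. None of their rows passed the test over all libraries, and the lists' median log2 differences stand beside -0.11 over all tested rows. Their counts in all 3 libraries stand beside the 17.8% higher and 28.6% lower of all tested rows. Of 12 tested rows of coreceptors and other surface partners, 5 were higher and 2 lower in all 3 libraries (median 0.22). CD8A, a coreceptor chain that carries LCK, was at 168, 178 and 139 RPM with SLEAR shRNA and at 122 RPM in Control. CD4, the other coreceptor that binds LCK, was at 19.7, 14.8 and 10.8 RPM, against 6.68 RPM in Control. CD8B, the other chain of that coreceptor, had 2 rows, uncertain because a near-identical copy of the gene exists, at 23.1, 32.3 and 39.5 RPM with SLEAR shRNA against 23.0 RPM in Control, and at 9.79, 14.1 and 0 RPM against 5.49 RPM. CD6, a surface receptor of T cells, was at 96.0, 133 and 171 RPM, against 91.7 RPM in Control, and the costimulatory receptor CD28 was at 1.28, 2.92 and 0 RPM, against 7.87 RPM. Without SLEAR shRNA-3, at a mean log2 level of at least 4, CD8A (adjusted p = 0.0216) and CD5 (adjusted p = 0.0131), an inhibitory surface receptor, were higher among 7 rows of this list, in a fit that called 7.04% of all rows higher. CD5 was at 65.8, 61.5 and 33.9 RPM with SLEAR shRNA and at 39.5 RPM in Control, the same order as LAT.

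Of 14 tested rows of other proximal kinases and phosphatases, 5 were higher and 2 lower in all 3 libraries (median 0.24). The values of 2 that act on LCK or its targets stood clear of Control: CSK, which keeps LCK inactive, at 109, 101 and 101 RPM, against 63.6 RPM in Control, and PTPN6, the phosphatase SHP-1, at 49.9, 54.9 and 59.6 RPM, against 22.7 RPM. Neither passed over all libraries (adjusted p = 0.993 each), and both did without SLEAR shRNA-3 in the restricted fit, where they were the 2 called of 6 tested, both higher, against 7.04% of all rows. PTPN7, a phosphatase of the MAP kinase branch, was at 71.2, 82.9 and 76.0 RPM, against 62.9 RPM in Control. FYN, the other Src family kinase of the receptor, was at 0.142, 0.797 and 0 RPM, against 0 RPM in Control, and was too low to be tested. PTPRC, the phosphatase CD45 that activates LCK, had 3 rows, all at or below 6.23 RPM. The 2 that were tested had log2 differences of 1.01 ± 1.06 and 1.35 ± 0.91 (SE) and did not pass (adjusted p = 0.993 each).

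Of 25 tested rows of adaptors and regulators around LAT and LCP2, 7 were higher and 6 lower in all 3 libraries (median 0.11). GRAP2, the adaptor GADS that links LCP2 to LAT, was at 31.9, 22.7 and 13.5 RPM with SLEAR shRNA, against 45.1 RPM in Control. FYB, the adaptor ADAP that binds LCP2, was at 26.2, 23.3 and 21.0 RPM, against 45.3 RPM in Control, a log2 difference of -0.92 ± 0.32 (SE, adjusted p = 0.993). VAV1, the exchange factor that LCP2 recruits, was at 144, 136 and 209 RPM, against 132 RPM in Control. DOK2, an inhibitory adaptor, was at 101, 88.5 and 103 RPM, against 64.6 RPM, and LIME1, a membrane adaptor, at 17.7, 19.1 and 38.4 RPM, against 10.4 RPM. In the restricted fit without SLEAR shRNA-3, 3 of 15 rows of this list were called higher and 2 lower, against 7.04% and 7.02% of all rows; GRAP2 (adjusted p = 0.0244) and FYB (adjusted p = 0.00773) were the lower ones. The higher ones were DOK2, WAS and SLA2, with log2 differences of 0.54, 0.52 and 0.60 in that fit. WAS, the Wiskott-Aldrich syndrome protein that regulates actin, was at 96.9, 95.3 and 51.5 RPM with SLEAR shRNA. Control was at 66.5 RPM, so WAS was lower than Control in SLEAR shRNA-3. SLA2, an adaptor that dampens receptor signalling, was at 190, 198 and 129 RPM, against 128 RPM in Control. WAS and SLA2 were named after their values were seen.

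Downstream of PLCG1 the lists had medians of -0.15 for the calcium branch (18 tested, 2 higher and 4 lower in all 3 libraries) and -0.20 for the diacylglycerol and RAS branch (23 tested, 6 higher and 8 lower). NRAS, a RAS GTPase, was at 133, 131 and 142 RPM with SLEAR shRNA, against 203 RPM in Control. CHUK, the kinase IKK alpha, was at 62.4, 68.7 and 70.2 RPM, against 98.3 RPM in Control. Both were lower in all 3 libraries; neither passed over all libraries, and in the restricted fit without SLEAR shRNA-3 they were the 2 rows called lower of 12, against 7.02% of all rows (NRAS adjusted p = 0.00347, CHUK adjusted p = 0.0229). The tested row of MAPK3, the kinase ERK1, was at 48.8, 45.2 and 72.7 RPM, against 34.7 RPM in Control. PPP3CA, the catalytic subunit of calcineurin, was at 53.8, 62.6 and 46.5 RPM, against 73.0 RPM in Control, and CALM3, a calmodulin gene, at 65.0, 63.4 and 51.5 RPM, against 71.4 RPM. NFATC1, a transcription factor that calcineurin activates, had 2 rows, at 25.8, 36.7 and 47.6 RPM with SLEAR shRNA against 22.7 RPM in Control, and at 33.2, 26.4 and 16.4 RPM against 26.6 RPM. Of 13 tested genes that T cell activation induces, 3 were higher and 5 lower in all 3 libraries (median -0.16). Few of them were abundant: DUSP2, a phosphatase of MAP kinases, was at 21.3, 22.9 and 35.7 RPM, against 16.8 RPM in Control, and NFKBIA, the NF-kB inhibitor, at 115, 111 and 73.7 RPM, against 96.4 RPM.

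**Figure D4:**
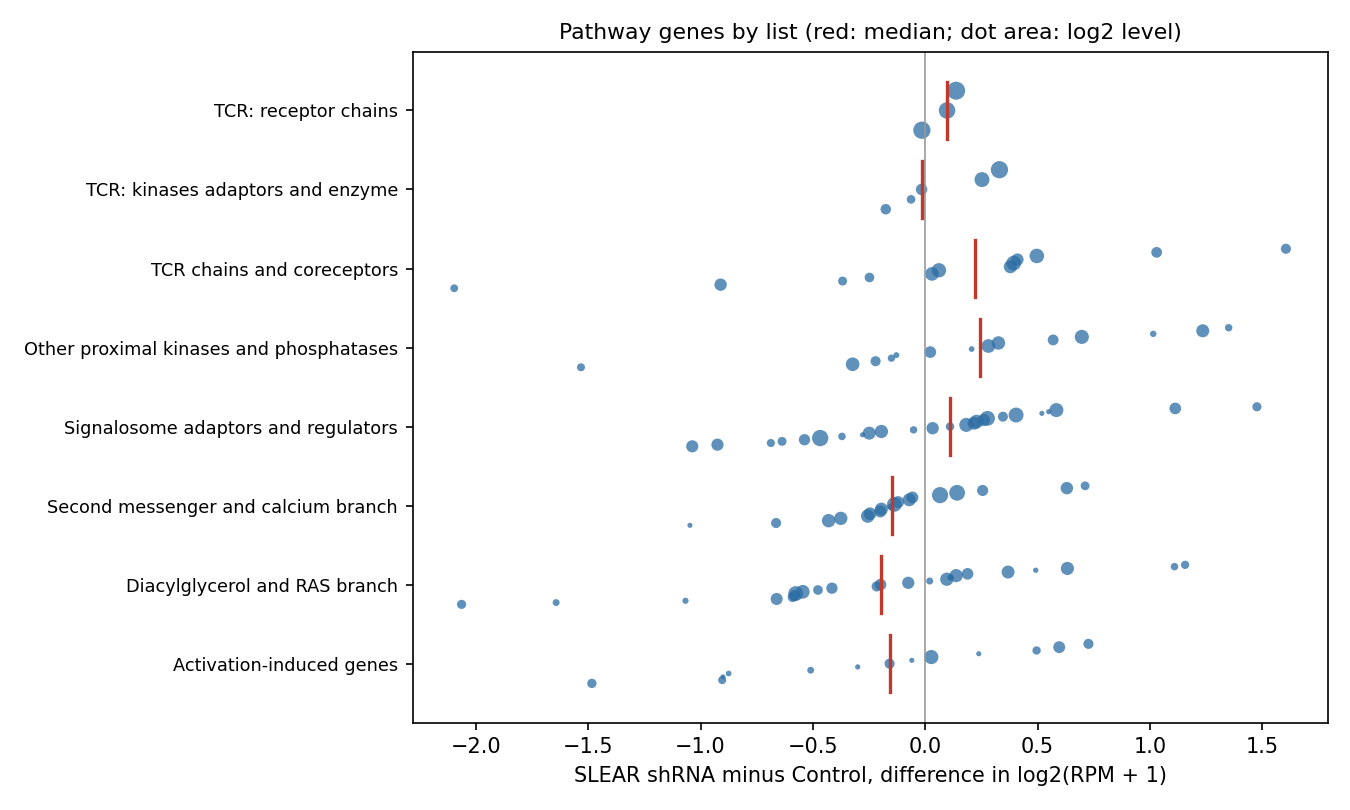
Mean difference from Control in log2(RPM + 1) of every tested row in the 2 classes of members and the pathway lists; dot area grows with the log2 mean level and red lines are list medians. The abundant members lie within about 0.33 of 0, and the widest differences belong to small dots, the rows with few reads.

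The rows whose differences from Control in the 3 SLEAR shRNA libraries lay nearest to those of CD3D, among 4845 rows with a mean log2 level of at least 4, were LGALS3BP (Euclidean distance 0.0435), LAMTOR2 (0.0464) and NDUFB8 (0.0594). For LCK they were NUMA1 (0.0595), CARS2 (0.0633) and JUP (0.0645). The measure rests on 3 differences that share a Control, and it describes likeness in these libraries alone.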

How the data were processed

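Values are RPM as deposited. Per the submitters' processing notes FastQC, Bowtie2, SAMtools and build hg19 were used; versions, the assignment of reads to rows and filters are not given in the sources used here, and the labels' protocols describe MAPS libraries read at 3' ends. Of rows alike in all libraries and averaging 1 RPM or more, 1 was kept, leaving 16151. Limma-trend (limma 3.58.1, R 4.3.3) compared SLEAR shRNA with Control on log2(RPM + 1), using the rows that reached 1 RPM in some library and adjusting by Benjamini-Hochberg over them. A fold change on this scale understates the change of low rows. RPM values were not whole reads throughout, so no negative binomial count test was run, and limma-voom on estimated reads was an alternative. The members, lists and alternatives were chosen with earlier results of these data known. Named pathway genes are, per list, the 3 tested rows of lowest p that averaged 15 RPM or more, a fixed set of genes, and members past the threshold; the rule for likeness took the 3 nearest rows. CD28, FYN and the others below 15 RPM are of the second kind. Housekeeping genes and motifs were picked after values were seen. Member rows matched RefSeq accessions of the same gene. Some genes of the lists are not reported here by name.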

Additional observations from a re-analysis of the deposited data

How the results depend on the processing

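No paired analysis was possible because Control carries no replicate number. Of 92 values of the 8 tested members under the alternatives, 81 kept direction and side of the threshold. Over all rows 0 were called in 11 of the alternatives, and 693 of 4932 without SLEAR shRNA-3 at a mean log2 level of at least 4, where LAT passed (0.50, adjusted p = 0.0157). The sign turned in 10 values: CD247 to 0.0031 with TMM factors, 0.0562 with array weights and 0.0869 without SLEAR shRNA-3 (with or without the level minimum), ZAP70 to 0.0012, 0.0585 and 0.0413 in the same fits, and LCP2 to 0.0372 with a pseudocount of 5 and 0.4891 without SLEAR shRNA-2. Leaving out each SLEAR shRNA library in turn gave -0.1049 to 0.0869 for CD247, -0.0863 to 0.0413 for ZAP70, -0.6434 to 0.4891 for LCP2 and 0.1028 to 0.5045 for LAT, -0.3039 to -0.0208 for PLCG1, 0.0282 to 0.1932 for CD3E, 0.0483 to 0.2013 for CD3D and 0.264 to 0.3796 for LCK, and 0 called rows each time. Receptor chains minus the other class came to 5.26, 4.98 and 4.99 with SLEAR shRNA and 5.02 in Control when medians were used, to 1.26, 1.43, 0.899 and 1.62 with a pseudocount of 0.1, where Control moved above all 3, and to 4.46, 4.55, 4.12 and 4.37 without CD3G, an alternative chosen after the data were seen. The causes were not tested. The planned negative binomial count test was not run. LCP2, PLCG1 and CD3G had the fewest reads of the members in every library. For LCP2 the counting intervals of the SLEAR shRNA libraries did not overlap each other, so its spread was wider than counting error.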

Other observations

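A list of genes of other blood lineages was also followed, mostly relatives or counterparts of these members. Of 10 tested, 3 were higher and 0 lower in all 3 libraries (median log2 difference 0.07). Among all tested rows 17.8% were higher and 28.6% lower in all 3 (median -0.11). The 3 higher ones were LCP1, CD79A and CD79B, the last at or below 1.45 RPM in every library. LCP1, the actin bundling protein L-plastin of white blood cells, which is no counterpart of a member, made up most of the summed level, at 1778, 1637 and 1655 RPM with SLEAR shRNA and at 1438 RPM in Control. CD79A, a signalling chain of the B cell receptor, was at 20.7, 18.3 and 21.6 RPM with SLEAR shRNA and at 12.05 RPM in Control. SYK, the counterpart of ZAP70 in B cells, was at 10.1, 6.78 and 11.8 RPM with SLEAR shRNA and at 8.23 RPM in Control, under the level of ZAP70 in each library. TYROBP, the adaptor DAP12 of NK and myeloid cells, was at 0 in every library. SYK and TYROBP were singled out after their values were seen. None of these passed the test.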
